A study of Mus musculus with 4 samples.

Results

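The genes described here encode the proteins of the cytosolic ribosome. They are the protein coding genes of the deposited table whose symbols are those of large subunit (Rpl, Rplp) or small subunit (Rps, Rpsa) proteins, without the Rps6k kinases. The rule found 84 of the 48709 listed genes, 32 for the small and 52 for the large subunit. Their expression was measured by RNA-seq in cells of C57BL/6 mice that carry Tas2r143-CreERT2;Rosa26flox-mT-stop-flox-mG, in which a transgene with the promoter of the bitter taste receptor gene Tas2r143 drives a tamoxifen-dependent Cre recombinase. Cells that have expressed the recombinase switch from Tomato to EGFP. All mice received tamoxifen for 5 days and were analysed 5 days after the last injection. EGFP-positive and Tomato-positive cells were sorted from trachea and stomach and pooled from 3 mice of one transgenic line, so there were 4 libraries and 1 library in each group. The libraries are called trachea EGFP, trachea Tomato, stomach EGFP and stomach Tomato. The EGFP sort used no epithelial gate, whereas the Tomato sort took EpCAM-positive cells, which carry an epithelial surface protein.

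The values are normalized counts, whole numbers that arose when the reads of a gene were scaled by a library factor. They summed to between 9979296 and 15433150 per library. From the spacing of low values, an estimated 6198320 reads were counted to genes in the trachea EGFP library. In the other libraries they were between 17338106 and 18913174, so the trachea EGFP values carry the largest counting error. These are reads counted to genes, fewer than the reads sequenced per library that the authors report. Intervals in brackets are 95% exact binomial (Clopper-Pearson) intervals computed on the estimated reads, and they cover counting error alone. They say nothing about the spread between mice or sorts, for which there are no replicates. The sample titles and the tissue fields contradict each other about the organ. Groups follow the titles, and the club cell list (summed level 1378126 normalized counts in trachea Tomato, 72 in stomach Tomato) and the chief cell list (2 and 1083873) sided with the titles. The markers of tuft cells, the chemosensory cells of these epithelia, summed to 101908 and 131899 normalized counts in the EGFP libraries of trachea and stomach and to 4211 and 8612 in the Tomato libraries. Of the 12 tuft cell markers, 11 in the trachea and 12 in the stomach were at least 4-fold higher in the EGFP library.

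A ribosome is built from a small subunit, which decodes the messenger RNA, and a large subunit, which joins the amino acids. Each ribosomal protein is present once in most ribosomes except for the paired stalk proteins, and cells make the proteins in matched amounts. Most of their messages begin with a C followed by a stretch of C and T, the 5′ terminal oligopyrimidine (TOP) tract, through which growth signals acting by way of the kinase mTOR and the protein Larp1 control their translation. Ribosomal protein messages are abundant in growing and secreting cells. Mutations in several of these genes, among them Rps19, Rps24, Rps26, Rps10, Rpl5 and Rpl15, cause Diamond-Blackfan anaemia.

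Transcript starts are shown for members at the extremes described below and for Rps6, the member known as an S6 kinase substrate, because the tract lies at the first base of the message. They were taken from RefSeq windows around annotated starts (build GRCm38.p6), which were found for 63 of the 84 members. Each line gives 12 bases before the annotated start and 18 from it on, 5′ to 3′. Capitals mark a run of at least 5 C or T that begins with C, at the annotated start where there is one and otherwise the longest such run that begins within 10 bases of it. The line of Rpl4 has no capitals, but it opens with such a run, 12 bases before the RefSeq start and so outside this limit. The first base of that run, 64173375, is the start of Rpl4 in the GENCODE vM21 annotation. Rpl4 is thus not shown to lack a tract. The positions are chr9:64173375-64173404 (plus strand) for Rpl4, chr4:86857350-86857379 (minus) for Rps6, chr3:90213631-90213660 (minus) for Rps27, chr14:18270969-18270998 (minus) for Rpl15, chr11:114668568-114668597 (plus) for Rpl38, chr17:27635227-27635256 (minus) for Rps10, chr7:45128728-45128757 (minus) for Rpl13a, chr17:24720051-24720080 (plus) for Rps2, chr9:120127754-120127783 (plus) for Rpsa and chr3:28805496-28805525 (plus) for Rpl22l1.
Rpl4: cttttcctgtgggagcagccgggtagagag
Rps6: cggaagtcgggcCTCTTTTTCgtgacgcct
Rps27: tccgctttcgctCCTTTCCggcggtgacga
Rpl15: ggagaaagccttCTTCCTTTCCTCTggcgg
Rpl38: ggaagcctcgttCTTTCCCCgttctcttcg
Rps10: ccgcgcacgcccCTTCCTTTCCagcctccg
Rpl13a: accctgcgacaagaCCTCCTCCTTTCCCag
Rps2: cagtcgagatctcgcgCTTCTTggagcact
Rpsa: ggttatttaaggacgtcatttccggccgcc
Rpl22l1: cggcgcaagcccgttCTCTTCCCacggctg

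Over all members with a window, 13 of 63 (20.6%) had such a run at an annotated start, against 3.01% of the 27025 genes with a RefSeq window. None of the 68 mitochondrial ribosomal protein genes and none of the 32 proteasome genes with a window had it. A run that began within 10 bases was found for 39 members (61.9%) and for 33.9% of all genes. These are matches of letters, on the strand of the message, to annotated starts, which can lie some bases away from the starts used in these cells.

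Ribosomal protein messages were a smaller share of the EGFP library than of the Tomato library in both tissues. In the trachea the 84 members held 2.02% of all normalized counts in EGFP-positive cells (2.01 to 2.03) and 2.76% in Tomato-positive cells (2.76 to 2.77). In the stomach they held 1.45% (1.44 to 1.45) and 1.99% (1.984 to 1.997). The EGFP share was thus 0.730 times the Tomato share in the trachea and 0.726 times in the stomach. The summed level of the members, which also depends on the library factor, was 0.490 and 0.641 times as high. All intervals were apart, and without replicates the differences could not be set against the spread between mice.

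The denominators of these shares differed in make-up. Immunoglobulin genes, made by B and plasma cells, took 12.8% of the stomach EGFP library, 0.544% of stomach Tomato, 0.350% of trachea EGFP and 0.0228% of trachea Tomato. Without these genes the members held 1.66% of stomach EGFP and 2.001% of stomach Tomato. Without the 10 highest genes of each library they held 2.21% and 3.28% in trachea EGFP and Tomato, and 1.83% and 3.21% in stomach EGFP and Tomato. The EGFP share was the lower one with each of these denominators. In bulk libraries, a lower share of cells that hold much ribosomal protein message and less message in each cell cannot be told apart.

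**Figure D1:**
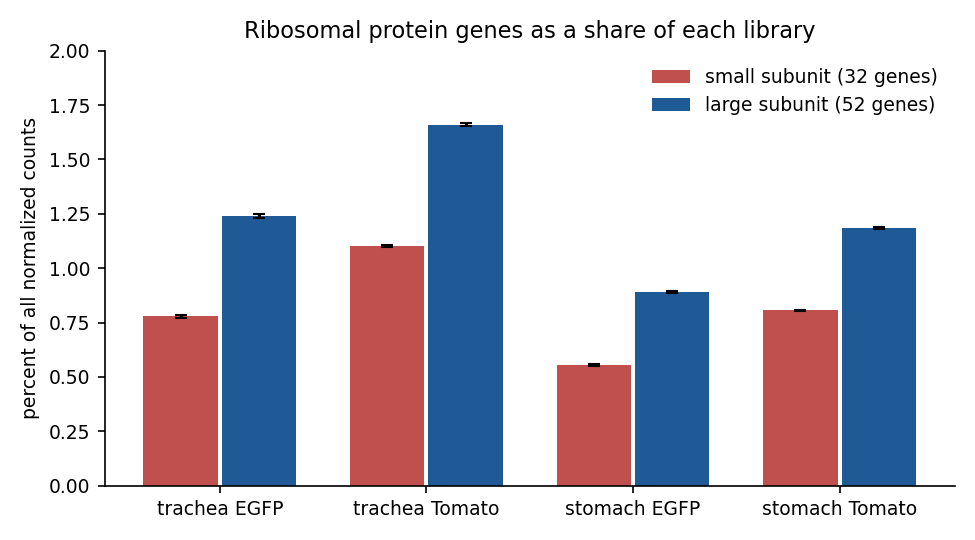
Share of all normalized counts (percent, vertical axis) taken by the 32 small subunit (red) and 52 large subunit (blue) genes in each of the 4 libraries; error bars are 95% counting intervals of single libraries. In both tissues both bars of the EGFP library are lower than those of the Tomato library, and trachea Tomato is the highest, at 1.10% and 1.66%.

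The small subunit, which has 32 of the 84 genes, held the minor part of the members' normalized counts in each library. That it was minor goes with the number of genes and is no measure of the level per gene. Its part was smaller in EGFP-positive than in Tomato-positive cells. Small subunit genes made up 38.6% of the members' normalized counts in trachea EGFP (38.4 to 38.9) and 39.9% in trachea Tomato (39.8 to 40.1). In the stomach they made up 38.5% (38.3 to 38.7) in EGFP-positive and 40.5% (40.3 to 40.6) in Tomato-positive cells. The EGFP value was the lower one also per residue of protein length, at 38.2% against 41.8% in the trachea and 39.4% against 40.9% in the stomach. Rps2 and Rpsa, both small subunit genes with strong declines, carried part of this. Without these genes, an alternative chosen after the values were seen, the small subunit made up 37.4% and 38.1% in trachea EGFP and Tomato, and 37.4% and 38.2% in stomach EGFP and Tomato.

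Of the 84 members, 79 reached 50 normalized counts in every library, all 32 of the small and 47 of the large subunit, and 74 reached 500. The 79 members spanned a wide range. Their median level was 1762 normalized counts in trachea EGFP, 3203 in trachea Tomato, 1606 in stomach EGFP and 2611 in stomach Tomato. The SD of their log2 levels lay between 1.30 and 1.47.

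The members kept nearly the same order of levels in each library. Spearman's rho between the profiles of the 79 genes was 0.920 for the trachea libraries, 0.940 for the stomach libraries, 0.907 for the EGFP libraries and 0.964 for the Tomato libraries. These are correlations across genes, which share transcript length and mappability in every library, and genes are not independent replicates.

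Rpl4, whose protein lines the exit tunnel of the large subunit, had the most normalized counts in every library. It was at 13820 in trachea EGFP, 39179 in trachea Tomato, 15599 in stomach EGFP and 26561 in stomach Tomato, and ranked between 36 and 89 among all genes. Rps3, at the messenger entry of the small subunit, came next with 10697, 28013, 11555 and 17015 in the same order. The other places among the first 5 were taken by Rplp0, the base of the stalk that recruits elongation factors, by Rpl8 and Rpl3, which lie at the catalytic centre, and by Rps9, Rpl14 and Rpl7. The first 5 members held between 24.3% and 28.5% of the members' normalized counts. Per kb of annotated transcript, Rps9 led in trachea EGFP (11237 normalized counts per kb) and Rpl4 in the other libraries (25474 in trachea Tomato, 10142 in stomach EGFP and 17270 in stomach Tomato). Neither the levels nor the values per kb allow for reads that were discarded because they fit several places.

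**Figure D2:**
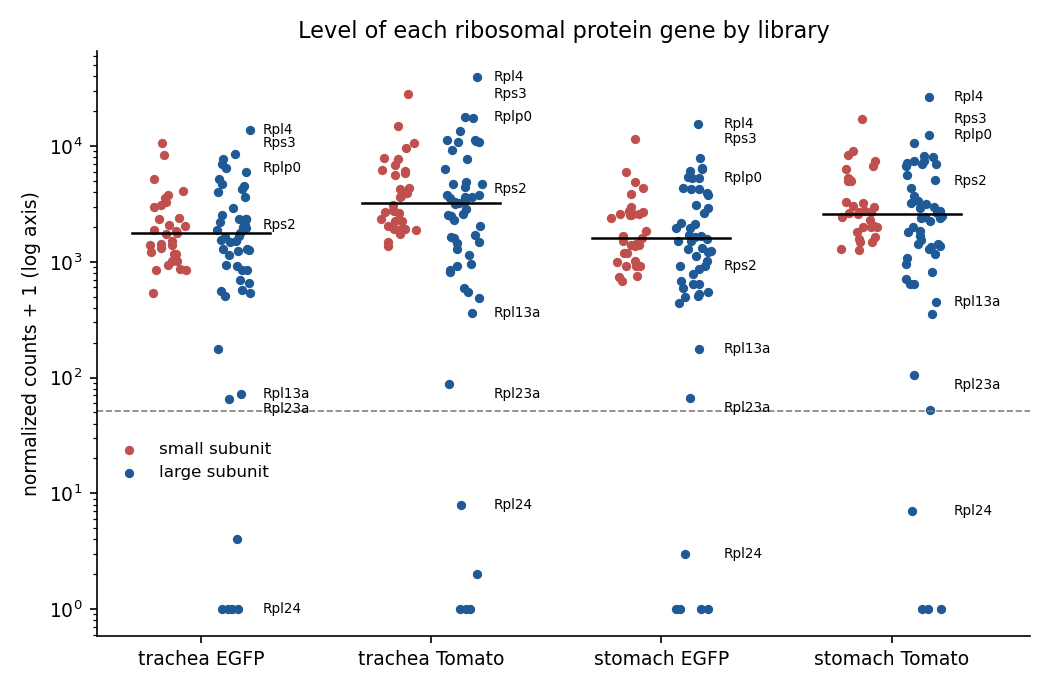
Normalized counts + 1 of each member (log axis) in the 4 libraries, with small subunit genes in red and large subunit genes in blue, a bar at the median of the members at 50 or more, and a dashed line at 50. Rpl4 and Rps3 are on top in each library, whereas Rpl13a, Rpl23a and Rpl24 are set below the bulk.

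The position of a gene in this order was loosely related to its length. Mean log2 level and protein length had a Spearman's rho of 0.426 over the 79 genes. A further property of these genes is that the genome holds many processed copies of them, and reads that fit several places had been discarded. The share of 75-base windows of each member's annotated transcript that occur in no other gene and overlap no other gene was therefore computed as a description. It ranged from 1.48% for Rps27 to 100%, the value of Rps3. It was under 20% for 13 members. Its relation to the mean level was weak (rho 0.225), and the third of members with the lowest shares had median log2(EGFP/Tomato) of -0.87 in the trachea and -0.56 in the stomach, against -0.90 and -0.56 in the third with the highest shares. Levels of single members, such as Rps27, may thus have been counted from short stretches of transcript, whereas the difference between the sorts was of like size at high and low shares.

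**Figure D3:**
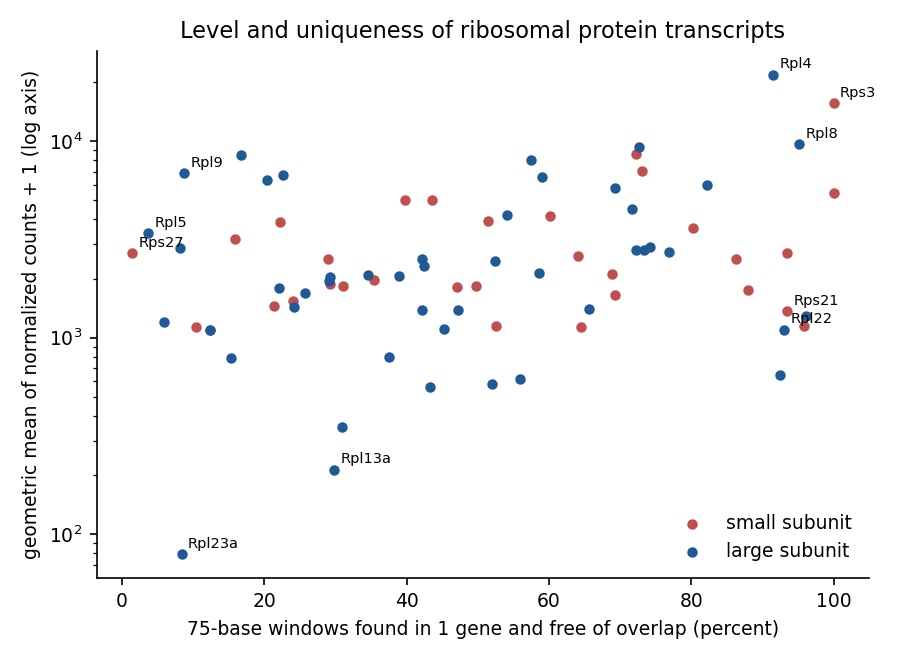
Percent of 75-base transcript windows found in 1 gene and free of overlap (horizontal axis) and geometric mean of normalized counts + 1 over the 4 libraries (log axis) for the 79 members at 50 or more in every library; red points are small and blue points large subunit genes. Highly expressed members are found across the whole range of shares, from Rpl9 at 8.74% to Rps3 at 100%, and Rpl23a, the lowest point, had a share of 8.44%.

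In the trachea 76 of the 79 members tested had lower normalized counts in EGFP-positive than in Tomato-positive cells, against 54.0% of all genes tested. The median log2((EGFP + 1)/(Tomato + 1)) over the members was -0.93, with quartiles at -1.24 and -0.54, against a median of -0.32 and quartiles at -3.36 and 2.02 over the 10523 genes tested. The members thus moved within a narrow band below the median of all genes. A gene was called higher or lower when it differed by 4-fold or more and reached 50 normalized counts in the higher library. By this rule 0 members were higher and 2 were lower, whereas 25.2% of all genes tested were higher and 32.4% lower. Single libraries allow no test, so these calls carry no p-value. At a 2-fold limit 34 members were lower and 0 higher, against 41.5% and 33.9% of all genes, so the share of lower members was near that of all genes.

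The 2 members called lower in the trachea were Rpl13a and Rpsa. Rpl13a, a large subunit protein that also takes part in silencing of inflammatory messages after interferon-gamma, was at 71 normalized counts in EGFP-positive and 357 in Tomato-positive cells. This was 0.199 times the Tomato level (0.142 to 0.271), and the gene was the lowest but one of the members above 50 in trachea EGFP. Of its windows 29.8% were usable, that is, found in no other gene and free of overlap. Rpsa, which is also known as the laminin receptor, was at 1886 and 7822 (0.241 times, 0.227 to 0.256). Among the members with 500 or more normalized counts in a library it was the one that fell the most.

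Further members stood clearly below the median of the members in the trachea. Rps10, a protein of the small subunit head, was at 536 in EGFP-positive and 1895 in Tomato-positive cells, a log2 ratio of -1.82. Rpl22l1, the paralog of Rpl22, was at 174 and 546 (-1.64). Rps26, next to the messenger exit, was at 1161 and 3608 (-1.64). Rps10 and Rpl22l1 overlap other annotated genes, and 12.4% and 31.0% of their windows were usable.

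A few members were level or higher in EGFP-positive cells of the trachea. Rpl15, a large subunit protein, was at 2080 against 1686 normalized counts, 1.23 times as high (1.15 to 1.32). Rpl38, known for its part in the translation of Hox messages, was at 560 against 489 (1.15 times, 1.002 to 1.31). Rps21 was at 1502 against 1478 (1.02 times, 0.938 to 1.10), so a difference was not detectable. Rpl30 with 1135 and 1145 and Rpl41, the smallest ribosomal protein, with 4538 and 4736 were likewise within counting error of equal levels.

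In the stomach 76 of 80 members tested were lower in EGFP-positive cells, against 53.4% of all genes tested. The band was narrower than in the trachea. The median log2 ratio was -0.66 with quartiles at -0.85 and -0.43, against -0.15 and quartiles at -1.67 and 1.05 over 11094 genes. Again 0 members were higher and 2 lower by the 4-fold rule, while 14.8% of all genes tested were higher and 22.4% lower. At 2-fold, 10 members were lower and 0 higher, against 33% and 26% of all genes, so fewer members than genes at large passed this limit.

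Rps2, which lies near the messenger entry of the small subunit, was the outlier of the stomach. It was at 919 normalized counts in EGFP-positive and 5002 in Tomato-positive cells, 0.184 times the Tomato level (0.172 to 0.196). In the trachea it was at 2064 and 4284, a log2 ratio of -1.05, close to the median of the members. The stomach EGFP library was thus the one that stood apart for Rps2, with less than the 3 other libraries. The second gene called lower was Rpl3l, the striated muscle paralog of Rpl3, with 0 normalized counts in stomach EGFP and 51 in stomach Tomato. It was at 3 in trachea EGFP and 0 in trachea Tomato, so its call rests on 51 normalized counts in 1 library.

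Other low members of the stomach were Rpl13a (177 against 452, log2 ratio -1.35), Rps12 (736 against 1819, -1.30) and Rpsa (2561 against 6294, -1.30), so Rpl13a and Rpsa were among the 6 members with the lowest log2 ratios in both tissues. At the upper end Rpl22l1 was at 443 against 350, 1.27 times as high (1.12 to 1.44), and Rpl30 at 1963 against 1666, 1.18 times (1.11 to 1.25). Rps24 (2697 against 2611) and Rpl5 (4323 against 4304), which binds the 5S ribosomal RNA, did not differ beyond counting error. Rpl7 was at 6287 against 6724, a log2 ratio of -0.10.

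**Figure D4:**
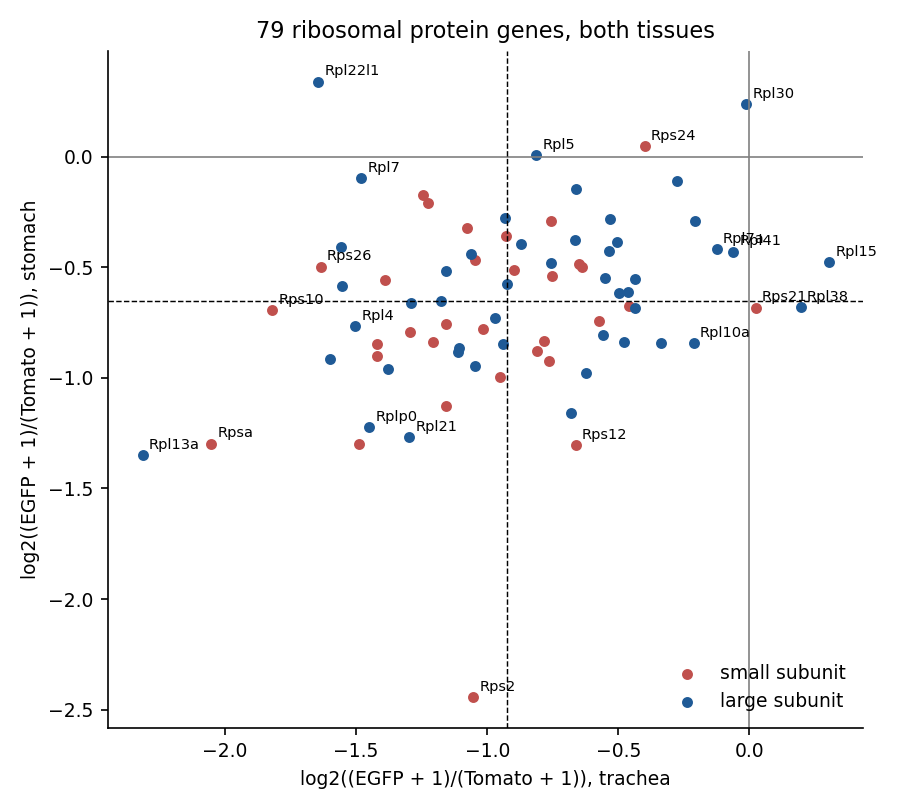
Each point is 1 of the 79 members at 50 or more normalized counts in every library, with log2((EGFP + 1)/(Tomato + 1)) of the trachea on the horizontal and of the stomach on the vertical axis; dashed lines are the medians of the plotted members, solid grey lines mark 0, red is the small and blue the large subunit. Most points lie below 0 on both axes, Rps2 stands alone at the bottom, Rpl13a and Rpsa lie to the lower left and Rpl15, Rpl38 and Rpl22l1 lie on opposite sides of 0 in the 2 tissues.

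The stalk proteins had lower normalized counts in the EGFP library of both tissues. Rplp0 was at 6513, 17791, 5316 and 12419 normalized counts in trachea EGFP, trachea Tomato, stomach EGFP and stomach Tomato, with log2 ratios of -1.45 and -1.22. Rplp1, which binds Rplp0 together with Rplp2, was at 2903, 6268, 3067 and 5664, and Rplp2 at 2348, 3761, 1661 and 3713. Rps6, the substrate of the S6 kinases, was at 2406, 5631, 2559 and 2961, so its log2 ratio was -1.23 in the trachea and -0.21 in the stomach. Rps27, which also begins with a tract, was at 1842, 4367, 2387 and 2693, with log2 ratios of -1.25 and -0.17.

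The order of the members by log2 ratio was only loosely shared by the tissues. Over the 79 genes Spearman's rho was 0.279 and Pearson's r 0.274, and without Rps2, Rpsa and Rpl13a they were 0.219 and 0.191. These tissues share no library, but genes are no replicates and no p-value is given. Small subunit genes had the lower medians, -1.03 against -0.76 for the large subunit in the trachea and -0.72 against -0.60 in the stomach. The quartiles of the subunits overlapped in both tissues.

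These signs rest in part on the library factors. With both libraries set to the same total, the median of the members was -0.35 in the trachea, where 56 of 79 members were below 0, and -0.47 in the stomach, where 71 of 79 were below 0. No member was then called lower in the trachea and 1, Rps2, in the stomach, against 27.6% and 20.7% of all genes. The median of all genes moved as well, to 0.35 and 0.05. Over all genes in the trachea, 2651 genes were higher and 3411 lower as deposited, and 3187 and 2893 at equal totals. Relative to the median of all genes, the members were at -0.61 in the trachea and -0.50 in the stomach as deposited, and at -0.70 and -0.53 at equal totals.

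A linear model over the 4 libraries with the sort and the tissue as terms was the one test available. It leaves 1 residual degree of freedom, and the spread of each gene was taken from all genes at its level. limma with Benjamini-Hochberg adjustment called 0 of 80 members and 304 of 13023 genes, of which 183, or 1.41% of all genes tested, were lower in EGFP-positive cells. Unadjusted p-values under 0.05 were found for 5 members, all lower, among them Rpl4, Rpsa, Rplp0 and Rps2, against 11% of all genes tested in either direction. Rpl4 had a log2 fold change of -1.14 with an SE of 0.46 and the smallest adjusted p of the members (limma, 0.25), and it was lower in both EGFP libraries. The fitted log2 fold change was below 0 for 79 of the 80 members, with a median of -0.75 against -0.29 over all genes. With all libraries at the same total it was below 0 for 70 of 79, with medians of -0.37 and 0.11, and 1 member had an unadjusted p under 0.05, against 10.7% of all genes.

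Between the tissues the members were near each other. In EGFP-positive cells the median log2 ratio of trachea to stomach was -0.02 with 37 of 79 members above 0, and 0 were called higher or lower, against 19.8% and 28.3% of all genes. At 2-fold 2 were higher and 3 lower, against 30.8% and 37.3%. This median depends on the scaling, being 0.42 at equal totals, where that of all genes was 0.36. In Tomato-positive cells the median was 0.28 with 62 of 80 above 0, while that of all genes was -0.11. At a minimum of 500 normalized counts the medians were 0.30 and 0.39, so the members were then no higher than all genes. There 0 members were higher and 1, Rpl3l, was lower, against 20.3% and 27.9% of all genes.

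The paralogs of ribosomal proteins differed in whether they were detected. Rpl10l and Rpl39l, known from testis, were at 0 in all 4 libraries. A count of 0 allows up to 3 reads, or 4.83 normalized counts in trachea EGFP, 2.43 in trachea Tomato, 2.36 in stomach EGFP and 2.45 in stomach Tomato. Their parent genes Rpl10 (2336, 3376, 2623 and 3192 in trachea EGFP, trachea Tomato, stomach EGFP and stomach Tomato) and Rpl39 (531, 842, 544 and 707) were well detected. Rpl6l had at most 1 normalized count. Rps27l, a paralog of Rps27 that p53 induces, was at 1391, 2345, 1391 and 2022 and followed the other members, with log2 ratios of -0.75 and -0.54. Rpl7l1, which acts in ribosome assembly, was at 1293, 1634, 859 and 1541. Rpl22 was at 850, 1439, 925 and 1290, so that its paralog Rpl22l1 differed from it in direction in the stomach.

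Rpl24, which was named after its values were seen, was the only member of an ordinary ribosome under the limit of 50. It was at 0, 7, 2 and 6 normalized counts. Of its transcript windows 8.46% were free of another annotated gene, Gm28037, and reads that overlap several genes had been discarded. Rpl23a, with 64, 87, 65 and 105, had usable windows of 8.44%. How far these shares set the levels was not tested. Other members had shares as small at higher levels: Rpl5 (3.75%) was at between 2026 and 4323 normalized counts and Rps27 (1.48%) at between 1842 and 4367.

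Rps4l is listed as a processed pseudogene and is therefore no member. It was at 3220 normalized counts in trachea EGFP, 901 in trachea Tomato, 530 in stomach EGFP and 346 in stomach Tomato, higher in the EGFP library in both tissues (log2 ratios 1.84 and 0.61). Its parent Rps4x was at 1019, 2726, 1433 and 2678, lower in the EGFP library in both (-1.42 and -0.90). Reads that could come from either copy were left out by the authors. Of the transcript windows, 91.9% were usable for Rps4l and 47.1% for Rps4x. How far the reads left out changed the split between both genes was not tested. All 265 pseudogenes named after members summed to between 0.567% and 2.15% of the members' level, highest in trachea EGFP. Rps4l carried that rank: without it the values were 0.552% in trachea EGFP, 0.849% in trachea Tomato, 0.608% in stomach EGFP and 0.455% in stomach Tomato.

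Further proteins of the ribosome go by other symbols. Rack1, a scaffold on the small subunit, was at 10239 and 41480 in trachea EGFP and Tomato (log2 ratio -2.02, called lower) and at 18687 and 27122 in the stomach (-0.54). Fau, which is processed to Rps30, had log2 ratios of -0.58 and -0.36.

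Other parts of the protein synthesis machinery were examined by lists chosen with earlier results of these data known. Over all genes tested, 25.2% were higher and 32.4% lower in the trachea, and 14.8% and 22.4% in the stomach. The counts in this and the later lists stand beside these shares. Elongation factors and other TOP messages had 0 of 18 higher and 3 lower in the trachea (Eef1g, Eif3f and Pabpc1) and none beyond the rule in the stomach, with medians of -0.49 and -0.39. Pabpc1, the poly(A) binding protein, was at 1192 and 5642 in the trachea and at 367 and 1077 in the stomach. Eef1a1, which brings transfer RNA to the ribosome, was at 45211 and 62076 in the trachea and at 41627 and 41048 in the stomach. Initiation factors had medians of -0.33 and -0.24, with 3 of 23 higher and 1 lower in the trachea and none beyond the rule in the stomach.

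Mitochondrial ribosomal proteins had medians of -0.27 and -0.33, near that of all genes, and proteasome subunits of -0.25 and 0.02. Of the mitochondrial proteins 6 of 74 were higher and 11 lower in the trachea, and 0 of 76 higher and 3 lower in the stomach (Mrps30, Mrps22 and Mrpl38). The shares over all genes tested were 25.2% higher and 32.4% lower in the trachea, and 14.8% and 22.4% in the stomach. Mitochondrial ribosomal proteins, proteasome subunits and initiation factors all had wider quartiles than the members in both tissues. The quartile range was 0.69 for the members, 2.48 for the mitochondrial ribosomal proteins, 1.67 for the proteasome and 0.96 for initiation factors in the trachea, and 0.43, 1.18, 0.87 and 0.54 in the stomach. The lists were not compared at matched levels.

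Genes of ribosome assembly had a lower median than the members in the trachea and a median near theirs in the stomach. In the trachea 20 of 42 were lower and 6 higher with a median of -1.79, against 32.4% and 25.2% of all genes tested. In the stomach 3 were lower and 1 higher, against 22.4% and 14.8% of all genes tested. The median there was -0.70, with quartiles at -1.41 and -0.06, and that of the members was -0.66. Dkc1, which modifies ribosomal RNA, was at 0 normalized counts in trachea EGFP and 827 in trachea Tomato, and at 264 and 833 in the stomach. Fbl, the methyltransferase fibrillarin, was at 16 and 1063 in the trachea and at 53 and 159 in the stomach. Heatr3 went the other way in the trachea, with 557 against 1, and was at 128 and 494 in the stomach. Bop1 was at 222 and 905 in the trachea and at 2339 and 290 in the stomach, so it was called in opposite directions.

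RNA polymerase I, which makes the ribosomal RNA, and its regulators had 5 of 16 genes higher and 1 lower in the trachea and 2 of 15 higher and 2 lower in the stomach. For this and the next list, the shares over all genes tested were 25.2% higher and 32.4% lower in the trachea, and 14.8% and 22.4% in the stomach. Myc, a driver of ribosome production, was at 280 and 409 in the trachea and at 101 and 1461 in the stomach. Among regulators of ribosomal protein translation 3 of 14 were higher and 3 lower in the trachea, and 0 of 17 higher and 2 lower in the stomach, with medians of -0.09 and 0.59. Larp1, which binds the TOP tract, was at 232 and 606 in the trachea and at 261 and 142 in the stomach. Eif4ebp1, a repressor that mTOR inactivates, was at 349 and 1536 and at 214 and 785.

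**Figure D5:**
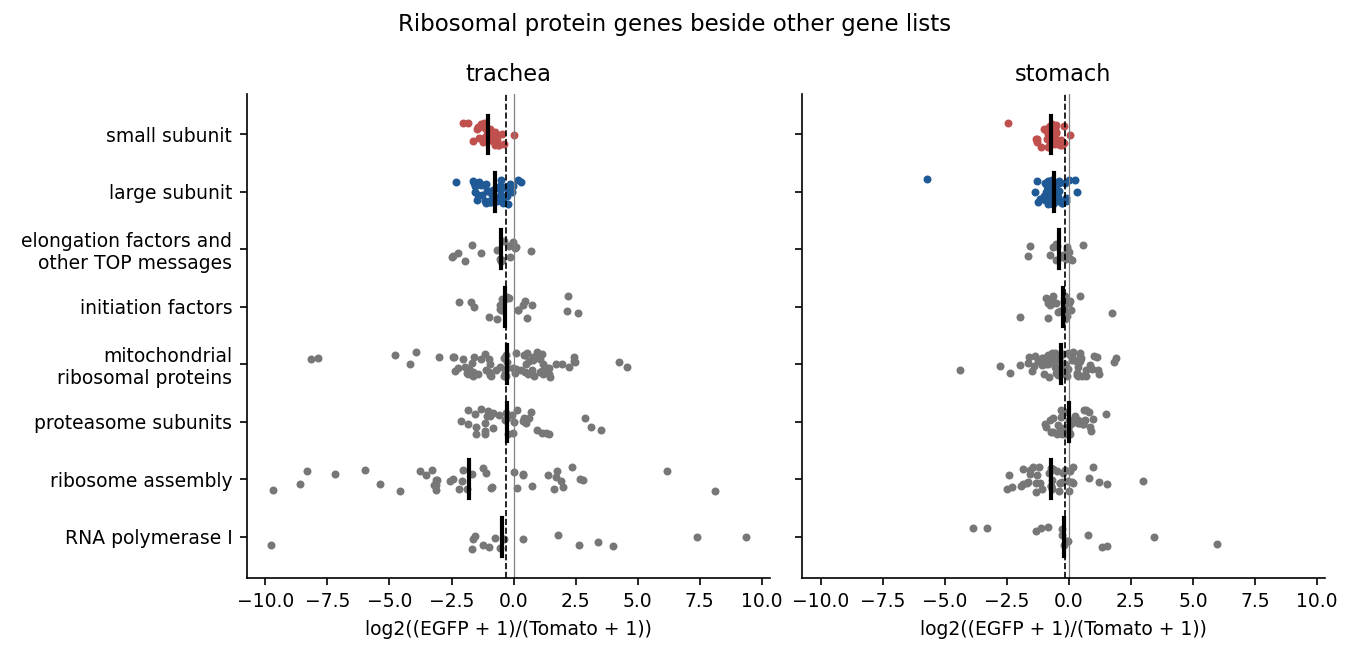
log2((EGFP + 1)/(Tomato + 1)) of single genes (points) by list in the trachea (left) and the stomach (right), with a thick bar at the median of each list, a dashed line at the median of all genes tested and a grey line at 0; small and large subunit genes are coloured red and blue. The ribosomal protein genes form the tightest clouds, with medians between -1.03 and -0.60, whereas the ribosome assembly list, with a median of -1.79 in the trachea, is spread widely; the single large subunit gene far to the left in the stomach is Rpl3l, at -5.70.

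Markers of other cell types moved with the sort, and their part in the result was not tested. Fibroblast markers summed to 478 and 30510 normalized counts in trachea EGFP and Tomato and to 269 and 26962 in the stomach, and 7 of 7 were lower in both. Col1a1 was at 0 in trachea EGFP. Myeloid markers summed to 1190 and 50314 and to 1134 and 16243. Of these markers 6 of 8 tested were lower and 1, Ptprc, was higher in the trachea, and 7 of 8 were lower and 0 higher in the stomach. Tyrobp, Csf1r and Itgax were at 0 in both EGFP libraries. Markers of B and plasma cells summed to 8680 and 6423 in the trachea and to 158220 and 11691 in the stomach. Of these markers 3 of 5 tested were higher and 1 lower in the trachea, and 5 of 8 higher and 0 lower in the stomach. Jchain made up most of the EGFP values, with 5156 and 15 normalized counts in trachea EGFP and Tomato and 149752 and 8479 in the stomach. Sdc1, at 0 and 5642, made up most of the trachea Tomato value, and Cd79a was at 0 in both trachea libraries. Proliferation markers summed to 512 and 2840 and to 958 and 4402. Of these markers 5 of 7 tested were lower and 1, Mcm2, was higher in the trachea, and 5 of 8 were lower and 0 higher in the stomach. Mki67 and Ccnb1 were at 0 in both EGFP libraries, and Mcm2 was at 0 in trachea Tomato. The differentiated cells that dominate the Tomato libraries also differed, with club cell markers at 61926 and 1378126 in the trachea and chief cell markers at 47021 and 1083873 in the stomach.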

How the data were processed

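EGFP-positive and Tomato-positive cells of trachea and stomach gave 4 libraries of 1 pool of 3 mice each. The authors aligned reads to GRCm38 (mm10) with STAR 2.4.0a and used featureCounts 1.4.5-p1 for gene counts, from which reads fitting several places or genes were excluded. The deposited score is a normalized count, a read count scaled by a library factor to a whole number. The sources used here do not give the origin of these factors. Where a symbol was repeated (116 symbols), its row of highest sum was kept. Estimated reads were normalized counts divided by the worth of 1 read, between 0.786 and 1.61, taken from the spacing of low values. Because the values had been rounded, no count model was run.

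Changes are log2((EGFP + 1)/(Tomato + 1)), with a pseudocount of 1, for genes at 50 or more normalized counts in the higher library. Genes beyond 4-fold (a log2 ratio of 2) were called, without p-values. limma 3.58.1 (R 4.3.3) was fitted to log2(value + 1) of all genes at 50 or more in a library, with sort and tissue as terms and a trended prior, at an adjusted p of 0.05. Other steps used Python 3.11.15 with pandas 2.3.3 and scipy 1.17.1. Both the rule and the model were run on simulated data, the rule with counting error alone and the model with the same added spread for every gene. The spread between pools of mice is unknown here, so these runs do not show how either performs on these libraries. Transcript lengths and windows are from GENCODE vM21, for the principal coding transcript with the longest coding part and then the shortest length.

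The members, the lists and the rule for named genes were chosen with earlier results of these data known. Named were members called in any comparison, the 5 largest and 5 smallest deviations from the members' median per tissue, the 5 highest members per library, paralog pairs, members at 0, stalk genes, Rps6 and Rpsa, and up to 4 genes of other lists. Rpl24, Rps4l and pseudogenes were named after their values were seen, as were the uniqueness of windows, the requirement that counting intervals exclude equal levels for opposite directions, and the limits for calling a value moved. Some genes that the rule names are not reported here. Samples were grouped by title.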

Additional observations from a re-analysis of the deposited data

Results flagged for a closer look

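A few members went in opposite directions in the tissues, with counting intervals that exclude equal levels in each; the difference between the tissues was not tested, since each rests on 1 library a group. Rpl15 had a log2(EGFP/Tomato) of 0.30 in the trachea and -0.48 in the stomach. Rpl38 had 0.20 and -0.68. Rpl22l1 had -1.64 in the trachea and 0.34 in the stomach. The counting interval of Rpl38 in the trachea began at a ratio of 1.002. Which members lie on opposite sides of 0 depends on the library factors. At equal totals the median of the members moved from -0.93 to -0.35 in the trachea and from -0.66 to -0.47 in the stomach. Opposite directions were not counted over all genes.

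Outside the list of members, pseudogenes named after ribosomal protein genes were 4-fold or more higher in an EGFP library. Rps12-ps9 was at 151 normalized counts in trachea EGFP and 23 in trachea Tomato. Rps19-ps3 was at 72 and 2 in the trachea and at 159 and 1 in the stomach.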

How the results depend on the processing

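Of 143 alternatives 99 left the value on the same side and within its limits, 43 moved it and 1 turned its direction. Among them, 40 concerned the deviations of single members, of which 39 were the same. Some outcomes were fixed beforehand. The fold limit cannot move a median, and medians over members with more than 80% of windows usable could only be labelled moved or turned. The tally is therefore no measure of how robust the results are. The median of members between trachea and stomach in EGFP-positive cells went from -0.02 to 0.42 with both libraries at the same total. With protein coding genes as the denominator, the members' share was 2.10%, 2.82%, 1.66% and 2.03% in trachea EGFP, trachea Tomato, stomach EGFP and stomach Tomato; without the 10 highest genes it was 2.21%, 3.28%, 1.83% and 3.21%, and without immunoglobulin genes 1.66% and 2.001% in stomach EGFP and Tomato. Members called lower in the trachea were 2 as reported, 1 at a minimum of 500, 0 at the same total and 34 at 2-fold, and 1 was higher with no minimum (Rpl3l). In the stomach they were 2, then 1 at a minimum of 500, 1 at the same total, 1 with the median of ratios and 10 at 2-fold. The median log2(EGFP/Tomato) moved to -0.35 (trachea) and -0.47 (stomach) at the same total, and in the stomach to -0.63 with a pseudocount of 10 and -0.63 at a minimum of 500. Between the tissues, EGFP gave 3 lower and 2 higher members at 2-fold and a median of -0.0063 at a minimum of 500, and Tomato a median of 0.33 at the same total and 0.30 at a minimum of 500, where 0 members were lower. The small subunit share was 38.9%, 40.2%, 38.8% and 40.8% over members at 500 or more and 38.2%, 41.8%, 39.4% and 40.9% per residue, in the order used above. Alternatives added after the data were seen gave 37.4%, 38.1%, 37.4% and 38.2% without Rps2 and Rpsa, and medians of -0.95 (trachea, 14 members tested) and -0.56 (stomach, 15) over members with more than 80% of windows usable. The cause of these shifts was not tested. The libraries carry no replicate numbers, and the limma fit compared the sorts within tissues through its tissue term. Each group has 1 library, so none was left out.

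With 1 pool per group, no value here can be set against the spread between mice. The trachea EGFP library, with the fewest estimated reads, limits the precision of members with few counts. The sorts differed in gate, so sort and cell type make-up cannot be told apart.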
